A study of Taeniopygia guttata with 2 samples.

Results

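The nuclei described here are a rare GABAergic cluster of Area X, the song nucleus of the zebra finch basal ganglia. The authors clustered the nuclei of the scrambled library alone and, separately, the nuclei of both libraries together. The members are all 277 nuclei of joint cluster 19, the cluster of the joint table that holds all 54 nuclei of cluster 22 of the scrambled library alone. They are 277 of 27245 nuclei, and the joint table has 23 clusters. Only the cluster columns chose them, and no expression value was used by the rule.

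Area X was sampled by single-nucleus RNA sequencing to ask which cell types FoxP2 knockdown affects. Male zebra finches of 160 to 185 days after hatching had been injected in Area X with an adeno-associated virus. The construct CS-shScr carries a scrambled hairpin, and CS-shFoxP2 carries hairpins against FoxP2, both in a switch that Cre recombinase can turn off and both driven by the CAG promoter, which is active in most cell types. Birds lived on a reversed light cycle before sampling, and the brains were taken shortly before the lights came on. Each condition has 1 library of pooled tissue from 2 birds, so the birds cannot be told apart, there is no replicate, and no test between conditions was made. The hairpin acts only in transduced cells, and the labels name no sort of transduced nuclei. Each library had its own barcodes except for 47 shared between them, of which 0 belonged to members.

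The value used throughout is the level of a gene, the number of its unique molecular identifiers (UMIs, one for each captured RNA molecule) summed over a group of nuclei and divided by all UMIs of the group, per 10000. A level carries an exact Poisson 95% interval and a share of nuclei an exact Clopper-Pearson interval. Log2 ratios of 2 levels carry an exact binomial interval. All of these cover counting error only and say nothing of the spread between birds. Levels of different genes were not compared with each other, since UMIs over exons and introns depend on gene length.

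GABAergic interneurons are local inhibitory neurons, a minority in the striatum beside the medium spiny neurons (MSNs), which are also GABAergic. They make GABA with the enzymes encoded by GAD1 and GAD2, load it into vesicles with SLC32A1 and clear it with membrane transporters, among them GAT3 (SLC6A11). In mammals, interneurons born in the medial ganglionic eminence keep LHX6 and SOX6, and those of the caudal ganglionic eminence keep PROX1, NR2F2 and, in cortex, ADARB2. Interneuron classes of the mammalian striatum are told apart largely by neuropeptides, calcium-binding proteins and NOS1.

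The scrambled library (shScr) held 142 members of 14289 nuclei, or 0.994% (95% interval 0.838 to 1.17). The library labelled shFoxP2 held 135 of 12956, or 1.04% (0.874 to 1.23), and the intervals overlap. The members had 924045 UMIs in all, 451159 in shScr and 472886 in the other library. Median depth was 2798 UMIs and 1531.5 genes per member in shScr and 3084 UMIs and 1602 genes in the library labelled shFoxP2, with 979 to 9910 UMIs in single members. Over all nuclei the library medians were 2300 and 2871 UMIs.

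Of the 142 shScr members, 54 came from cluster 22 of the shScr-only table (38.0%, 30.0 to 46.6) and 85 from its cluster 13 (59.9%, 51.3 to 68.0). The last 3 came from clusters 10 and 12. Cluster 13 of the shScr-only table had 272 nuclei, and 183 of them were placed in joint cluster 16 instead. The members are thus cluster 22 whole and a part of cluster 13, and the label of rare interneurons of cluster 22 names the smaller share of them.

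By the correlation of log2 levels over the 3237 genes with at least 50 UMIs in the members, the most similar clusters were joint cluster 16 (Pearson r = 0.888 over genes), 21 (r = 0.862) and 18 (r = 0.834). Genes are not independent, and these values only order the clusters. These 3 are called the nearest clusters from here on. A doublet score of the top 8% of its library was found in 5.63% of shScr members and 8.89% of members of the other library, against 52.9% of joint cluster 21, one of the nearest.

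**Figure D1:**
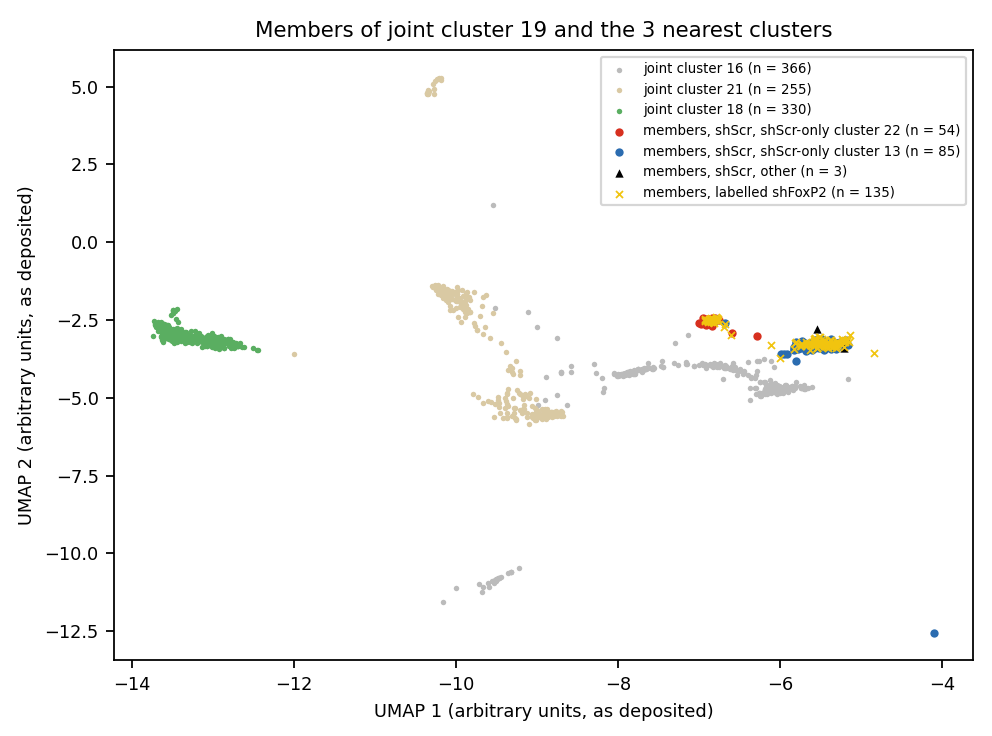
Position of the 277 members and of the 3 nearest joint clusters on the deposited UMAP of both libraries (arbitrary units). Each point is 1 nucleus. All 54 members from shScr-only cluster 22 lie left of the midpoint between both groups of shScr members, and 82 of the 85 members from cluster 13 lie right of it.

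GAD2, the given marker, had a level of 6.12 (5.42 to 6.88) in shScr members and 5.10 (4.47 to 5.78) in members labelled shFoxP2, against 5.41 in all other nuclei. The log2 ratio of members to all other nuclei was 0.05 (-0.08 to 0.17), and 9 of the other 22 joint clusters had a higher level. GAD2 was therefore present but did not set the cluster apart in a tissue where most nuclei are GABAergic. GAD1 (6.40 against 5.57) and SLC32A1 (4.03 against 3.06) differed little from the other nuclei as well. The transporter gene SLC6A11 was higher, with 7.49 against 1.19, or 2.66 on the log2 scale.

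Shares of nuclei with a UMI were compared after every nucleus was thinned to 1000 UMIs, which left out 1 member. A GAD2 UMI was then found in 42.0% of members (36.1 to 48.1; 76.9% before thinning, median depth 2991 UMIs). In joint cluster 6, astrocyte-like by its SLC1A2 and SLC1A3, it was found in 19.5% (29.7% before thinning, median 1626 UMIs), and in the oligodendrocyte-like joint cluster 8 in 25.3% (43.3%, median 1444). These types should lack GAD2, so their shares were taken as the background, and the share in members lay above it. The source of these UMIs was not tested, and 2.41% of joint cluster 6 and 14.2% of joint cluster 8 were in the top 8% of doublet scores.

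Markers of other cell types were low in the members. The 14 of 17 MSN markers with enough UMIs had a median log2 ratio of -1.17 to all other nuclei. Of these 14, 9 were at least 1 lower, beside 9.05% of all genes. The MSN joint clusters 1 to 5 held 18050 of the 26968 other nuclei. Against the 3 nearest clusters the median was -0.48. There 2 of 13 MSN markers were lower, beside 4.77% of all genes. FOXP1 had 8.16 against 33.7 in all other nuclei, PDE10A 33.7 against 115 and MEIS2 6.02 against 23.6 UMIs per 10000. In joint clusters 16, 21 and 18, FOXP1 had 8.76, 19.7 and 9.52, and PDE10A 27.8, 71.2 and 38.7. MEIS2 had 18.05, 13.6 and 7.88 there. In joint cluster 21, 52.9% of nuclei were in the top 8% of doublet scores, and its part in the ratios to the nearest clusters was not tested. The MSN list summed to 74.0 in members and 229.6 in all other nuclei. The labels give the cells as striatal projection neurons, and these members do not carry the genes of such neurons at the level of the rest. CHAT, the enzyme of cholinergic interneurons, had 7 UMIs in all members, and SLC17A6, a glutamate transporter of excitatory neurons, had 6.

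Of 3557 genes tested between members and all other nuclei, 11.9% were at least 1 higher on the log2 scale and 9.05% at least 1 lower. Since the authors drew the clusters from these same counts, ratios to other nuclei describe the members and are no test. The members had the highest level of all 23 joint clusters in 157 of the 3237 genes, and in 23 of them the level was at least 2 times that of the next cluster. The 3237 genes were chosen by their UMIs in the members, which favours genes that are high there. No such count was made for the other clusters, so these numbers do not show whether the members stand out.

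CRH and PENK were the neuropeptide genes with the highest ratios. CRH encodes corticotropin-releasing hormone, a stress peptide, and had 154 UMIs in shScr members (3.41 per 10000, 2.90 to 4.00) and 104 in members labelled shFoxP2 (2.20, 1.80 to 2.67). All other nuclei had 0.0460, giving a log2 ratio of 5.92, and the next joint cluster reached 0.127. After thinning, 23.6% of members had a CRH UMI against 0.853% of the astrocyte-like nuclei. PENK, the precursor of enkephalin, had 15.96 (14.8 to 17.2) in shScr members and 16.5 (15.4 to 17.7) in members labelled shFoxP2, against 2.00 in all other nuclei and 11.1 in joint cluster 16. Of all members, 71.5% had a PENK UMI, or 55.8% after thinning, against 16.7% of astrocyte-like nuclei.

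SST, NPY and NOS1, which together mark a class of striatal interneuron, were low. SST had 0.368 in members and 6.16 in joint cluster 16, NPY 1.98 against 21.2, and NOS1 had only 7 UMIs (0.0757) against 3.64. PVALB, a calcium-binding protein gene of fast-spiking interneurons, had 1.22, a log2 ratio of 0.51 to all other nuclei. RELN, a secreted matrix protein of several interneuron classes, had 5.91, a ratio of 1.07. Of the 9 genes of the list of interneuron peptides and calcium-binding proteins that could be tested against all other nuclei, 3 were at least 1 higher (CRH, PENK and RELN) and 0 lower, against the background of 11.9% and 9.05%. Against the nearest clusters 13 could be tested, 3 were higher and 8 lower, where all 3543 genes gave 5.31% higher and 4.77% lower.

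Receptors for endocannabinoids and VIP were high. CNR1, the cannabinoid receptor on inhibitory terminals, had 6.78 (6.04 to 7.59) in shScr members and 5.39 (4.75 to 6.10) in members labelled shFoxP2, against 0.223 in all other nuclei and 0.686 in the nearest clusters. The log2 ratio to all other nuclei was 4.76, and the next highest cluster had 2.00. A CNR1 UMI was found in 44.6% of thinned members and 2.47% of thinned astrocyte-like nuclei. VIPR1, a receptor of vasoactive intestinal peptide, had 3.94 against 0.215, and the next joint clusters, 17 and 23, had 2.52 and 2.40. NPY1R, a neuropeptide Y receptor, had 1.29 (ratio 1.34), and HTR2C, a serotonin receptor, had 8.26 (ratio 1.68). Of 15 neuromodulator receptors tested 5 were at least 1 higher and 6 lower, beside 11.9% and 9.05% of all genes. Among the lower were DRD1 (-1.03) and DRD2 (-1.87), the dopamine receptors of MSNs.

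Transcription factors of both ganglionic eminences were present. PROX1 had 5.46 against 0.503 in all other nuclei, NR2F1 4.51 against 0.412 and NR2F2 2.74 against 0.439. PROX1 was higher in joint clusters 17 (9.24) and 16 (6.82), the latter one of the nearest, and NR2F2 in joint cluster 10 (3.14). ADARB2, which encodes an RNA-binding protein of the RNA editing family, had 76.7 (74.1 to 79.3) in shScr and 88.4 (85.7 to 91.1) in the library labelled shFoxP2, against 10.1 in all other nuclei. Joint cluster 13 had 87.5, where the members of both libraries had 82.7. ZEB2 (28.1 against 3.76), MAF (9.43 against 1.59) and the neuregulin receptor gene ERBB4 (45.3 against 8.68), which mark migrating and mature interneurons in mammals, were high, but ERBB4 and MAF were as high in the nearest clusters (41.5 and 10.5). LHX6 had 0.920 against 0.300 and SOX6 2.35 against 1.42. Of 11 caudal or lateral eminence factors 8 were at least 1 higher than in all other nuclei and 1 (MEIS2) lower. Of 7 medial eminence factors 6 were higher and 0 lower, where all genes gave 11.9% higher and 9.05% lower. Against the nearest clusters 6 of 11 caudal or lateral factors were higher and 2 lower, and of 9 medial factors 0 were higher and 3 lower, beside 5.31% and 4.77% of all genes. DCX, a microtubule protein of migrating neurons, had 4.57, above each other cluster (next 3.39).

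**Figure D2:**
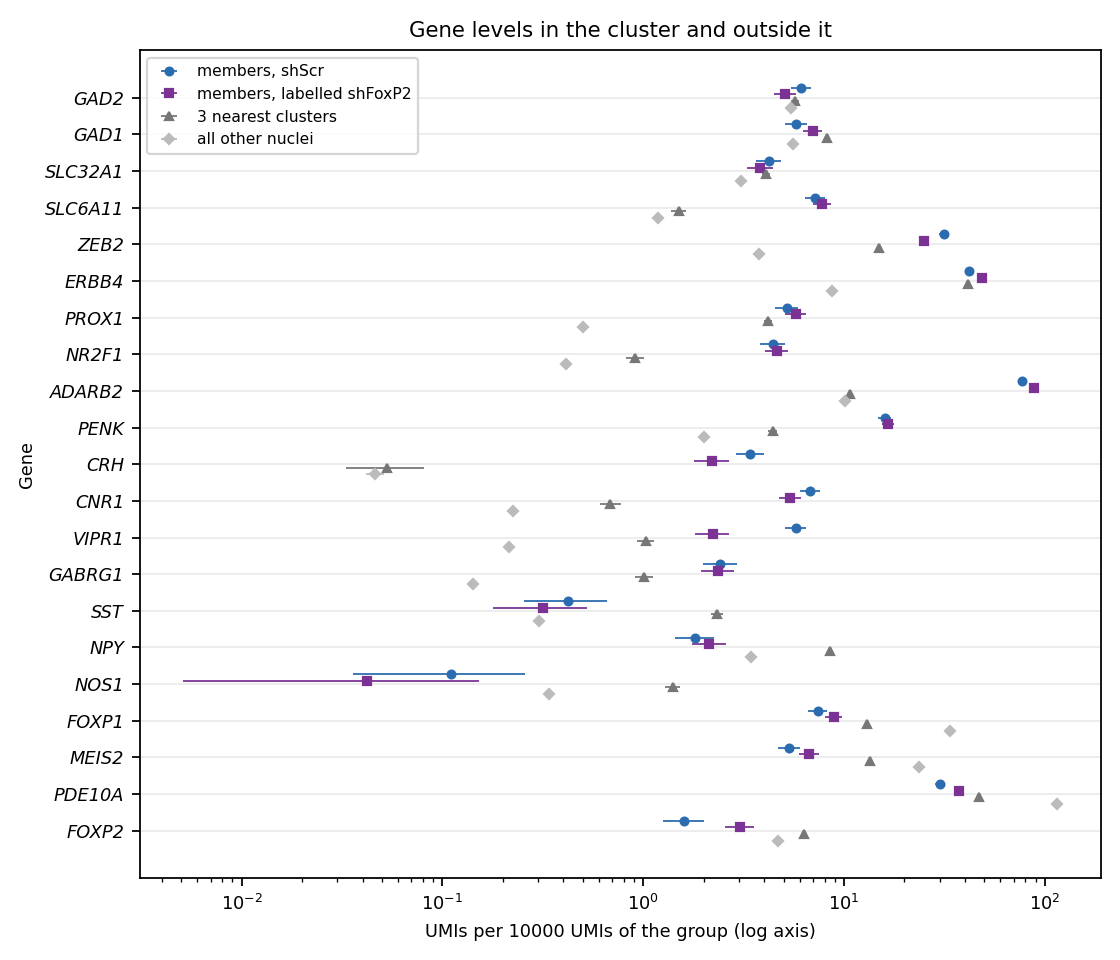
Levels of 21 genes in UMIs per 10000 (log axis) in shScr members, members labelled shFoxP2, the 3 nearest clusters and all other nuclei, with exact Poisson 95% intervals as bars. GAD2 is alike in all 4 groups, CRH and CNR1 lie far to the right in members of both libraries, and FOXP1, MEIS2 and PDE10A lie to the left.

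Among the named genes with the highest log2 ratios to all other nuclei were CCN3 (6.43), ASB2 (6.24), FGL1 (6.07), CRH (5.92), SLC35D3 (5.84), KCNS3 (5.59), EYA2 (5.26), CRTAC1 (5.14), ADAMTSL1 (5.07), SHISA8 (4.99), PRSS12 (4.79), CNR1 (4.76), ANO1 (4.76) and MEOX2 (4.73). ADAMTSL1, a secreted matrix protein, had 6.45 in shScr members and 6.196 in members labelled shFoxP2, against 0.188. EYA2, a transcriptional coactivator, had 3.75 and 3.81, against 0.0983. ANO1, a calcium-activated chloride channel, had 5.19 and 4.14, against 0.172, but joint cluster 14 alone had 5.32. MEOX2, a homeobox factor, had 2.17 and 1.63, against 0.0714. All 4 of these were high in both libraries.

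Against the nearest clusters the highest ratios included CCN3 (6.76), FGL1 (6.0), CRH (5.71), SLC35D3 (5.49), ADAMTSL1 (4.47), ASB2 (4.32), FN1 (4.29), CDH19 (4.17) and LCP1 (3.93). CCN3 and FN1 encode extracellular matrix proteins, and LCP1 an actin-bundling protein. FN1, CDH19 and LCP1 were higher in clusters outside the nearest. FN1 had 0.790 in members and 3.23 in joint cluster 15, CDH19 1.59 and 13.6 in joint cluster 8, and LCP1 0.617 and 1.60 in joint cluster 22. The lowest ratios were CPNE8 (-4.98), SLC16A12 (-4.93), CXCL12 (-4.77), NTN1 (-4.50), ST18 (-4.34), UNC5C (-4.25), NXPH1 (-4.24), NOS1 (-4.21), COL25A1 (-3.90) and LTK (-3.84). NTN1 is the guidance cue netrin and UNC5C one of its receptors. UNC5C had 0.574 in members against 9.61, 9.98 and 13.5 in joint clusters 16, 21 and 18. NXPH1, which binds neurexins, had 0.779 against 17.2, 14.6 and 12.2, and so was low beside each of the nearest clusters. CNTNAP2 (-1.19) and ROBO1 (-2.08), an adhesion and a guidance receptor, were lower as well. In all, 4 of 36 adhesion and guidance genes were higher than in the nearest clusters and 10 lower, beside 5.31% and 4.77% of all genes.

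Channels and receptors for fast transmission gave a mixed picture. Of 20 potassium and HCN channel genes 5 were at least 1 higher than in all other nuclei and 6 lower. KCNC2 (13.7, ratio 2.74) and KCNC1 (19.9, ratio 1.03), which carry the fast potassium currents of rapidly firing neurons, were higher, as were KCNJ6 (2.67), KCNT1 (2.12) and KCNH7 (1.81). KCNS3, a silent potassium channel subunit that modifies others, was outside this list. Of 12 GABA receptor genes 5 were higher, GABRG1 (4.06), GABRG3 (2.26), GABBR2 (2.07), GABRA2 (1.5) and GABRB2 (1.05), and 2 lower, among them GABRA5 (-1.91). Of 20 glutamate receptor genes 4 were higher, among them GRIA4 (1.93), GRID1 (1.68) and GRIK1 (1.26), and 3 lower, GRM3 (-1.88), GRIN3A (-1.63) and GRM4 (-1.47). Of 11 sodium and calcium channel genes 1 was higher, CACNA1I (1.92), and 1 lower, CACNA2D3 (-2.14). Over all genes 11.9% were higher and 9.05% lower, and the counts describe these lists with no test. Against the nearest clusters 2 of 20 potassium and HCN channel genes were higher and 0 lower. For GABA receptors it was 3 and 0 of 12, for glutamate receptors 1 and 2 of 20. For sodium and calcium channels it was 1 and 1 of 12, beside 5.31% and 4.77% of all genes. GABRG1 had 2.38 in members and 2.22 in joint cluster 16, and CACNA1I 3.36 against 7.35 in joint cluster 18.

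The shScr members from cluster 22 and those from cluster 13 had different profiles. Their log2 levels correlated at r = 0.676 over the 1596 genes that reached 50 UMIs in the pair of sums. The correlation of each with joint cluster 16 was 0.729 and 0.817. The next for the cluster 22 members were joint clusters 21 (0.7155) and 14 (0.7115). For the cluster 13 members they were joint clusters 12 (0.772) and 18 (0.770). The 2 groups had 206652 and 229057 UMIs and joint cluster 16 had 1327178, and counting error lowers r more in small sums. Its part in the difference of these correlations was not tested. Of the 1596 genes 9.65% were at least 1 higher in the cluster 22 members and 11.3% at least 1 lower. Since the authors drew these clusters from the same counts, the ratios within shScr are a description. The doublet score was in the top 8% for 0 of 54 nuclei of the first group and 6 of 85 of the second.

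The 2 groups shared the genes that lead the joint cluster only in part. CRH had 2.56 in cluster 22 members and 3.67 in cluster 13 members, PROX1 4.69 and 5.98, NR2F1 4.74 and 4.19, VIPR1 5.76 and 6.07, and GAD2 6.10 and 5.81, values that lie close together. ADARB2 had 124 UMIs in cluster 22 members (6.0, 4.99 to 7.15) and 3315 in cluster 13 members (145, 140 to 150), or -4.59 on the log2 scale. LHX6 went the other way, with 47 UMIs (2.27, 1.67 to 3.02) against 5 (0.218, 0.0709 to 0.509). After thinning, an LHX6 UMI was in 27.8% of cluster 22 members and in 0 of 85 cluster 13 members, whose upper bound is 4.25%, against 1.79% of astrocyte-like nuclei. SOX6 had 5.23 against 0.568 and NR2F2 0.871 against 4.67. The medial eminence genes LHX6 and SOX6 thus lay in one group and the caudal eminence genes ADARB2 and NR2F2 in the other, while PROX1 was present in both.

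The GABA transporter gene SLC6A11 (GAT3) was divided as well. It had 1.06 (0.667 to 1.61) in cluster 22 members and 12.9 (11.4 to 14.4) in cluster 13 members. SLC6A11 is also made by astrocytes, and the astrocyte-like joint cluster 6 had 16.01. The 7 astrocyte markers summed to 5.63 in cluster 13 members and to 172 in joint cluster 6. The part of astrocyte RNA in the SLC6A11 UMIs was not tested beyond these sums. PENK (5.57 against 21.2), RELN (2.27 against 8.73) and CNR1 (3.05 against 9.69) were higher in cluster 13 members.

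Among the 12 genes with the highest ratio in cluster 22 members, chosen after their values were seen, were VIPR2 (8.18 against 0.131), another VIP receptor, COL19A1 (120 UMIs against 0), a collagen, and the calcitonin receptor gene CALCR (2.81 against 0.131). GALNTL6, a glycosyltransferase gene, had 84.9 against 5.59, DPP10, an auxiliary subunit of Kv4 potassium channels, 41.7 against 2.75, and the growth factor gene IGF1 6.82 against 0.524. CRTAC1, ANO1, MTUS1, METTL14 and RASGRF2 were also among them. ADAMTSL1 (12.6 against 1.31), ANO1 (10.6 against 0.699) and MEOX2 (4.07 against 0.611) lay mainly in cluster 22 members. All of them were among the highest of the joint cluster against all other nuclei. In joint cluster 14, ANO1 had 5.32, VIPR2 8.165 and IGF1 5.68, while MEOX2 had 0.713 and GALNTL6 42.65. EYA2 (0.484 against 6.68) lay mainly in cluster 13 members.

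The 12 genes with the highest ratio in cluster 13 members, chosen in the same way, were PLPP4, CDH13, ADARB2, SHISA6, NTSR1, KIRREL3, ADAMTS19, CNTN6, DSCAM, SLIT3, PTPRK and CHRM3. CDH13, KIRREL3, CNTN6 and DSCAM encode surface adhesion molecules, SLIT3 a guidance cue, NTSR1 the neurotensin receptor and CHRM3 a muscarinic acetylcholine receptor. DSCAM had 4.50 in cluster 22 members and 69.6 in cluster 13 members, KIRREL3 1.98 and 37.9, CDH13 0.387 and 10.8, and CHRM3 0.194 and 2.84. The neurexin gene NRXN3 (7.50 against 63.8) and the factor gene NPAS3 (11.0 against 41.6) had the same direction. The potassium channel genes KCNJ6 (14.5 against 3.19) and KCNT1 (5.08 against 1.75) and the AMPA receptor gene GRIA4 (11.3 against 2.79) were higher in cluster 22 members, whereas KCNC1 and KCNC2 were alike.

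The library labelled shFoxP2 was not used to draw clusters 22 and 13. Its members were, however, chosen by the joint clustering, which used the counts of both libraries. Reading the division in them is therefore a description and no test. Genes were split into sets of 1887 and 1886, but genes are not independent. Each of the 135 members labelled shFoxP2 was scored on 1 set for likeness to the cluster 22 or the cluster 13 profile. Levels were read on the other set. On their own profiles the shScr nuclei fell on their own side in 53 of 54 cases for cluster 22 and in 84 or 83 of 85 for cluster 13, depending on the set. The sets put 39 and 41 members labelled shFoxP2 on the cluster 22 side, and 133 of the 135 were on the same side by both. On the UMAP 38 of the 39 nuclei put on the cluster 22 side by both sets lay with the matching shScr nuclei. Of the 94 put on the cluster 13 side by both sets, 93 did so. The authors drew clusters 22 and 13 and the UMAP from these same counts. The sides of the shScr nuclei and the UMAP positions are therefore descriptions and no test.

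Over 1472 genes with the minimum in both libraries the ratio of cluster 22 to cluster 13 side in the library labelled shFoxP2 correlated with that in shScr at r = 0.852, a description over genes. Of all 1472 genes, 1106 (75.1%) had the same sign in both libraries. Among the 308 chosen for being at least 1 apart in shScr, 301 (97.7%) did. ADARB2 had 5.82 on the cluster 22 side and 127 on the cluster 13 side of the library labelled shFoxP2, LHX6 1.85 and 0.124, SLC6A11 1.47 and 11.1, PENK 4.36 and 22.9, VIPR2 9.70 and 0.161 and DSCAM 6.14 and 64.6. Each of these genes lay on the same side as in shScr. A nucleus with an ADARB2 UMI had an LHX6 UMI in 13.4% of cases, and one without in 49.1%, over all members and at unequal depths.

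**Figure D3:**
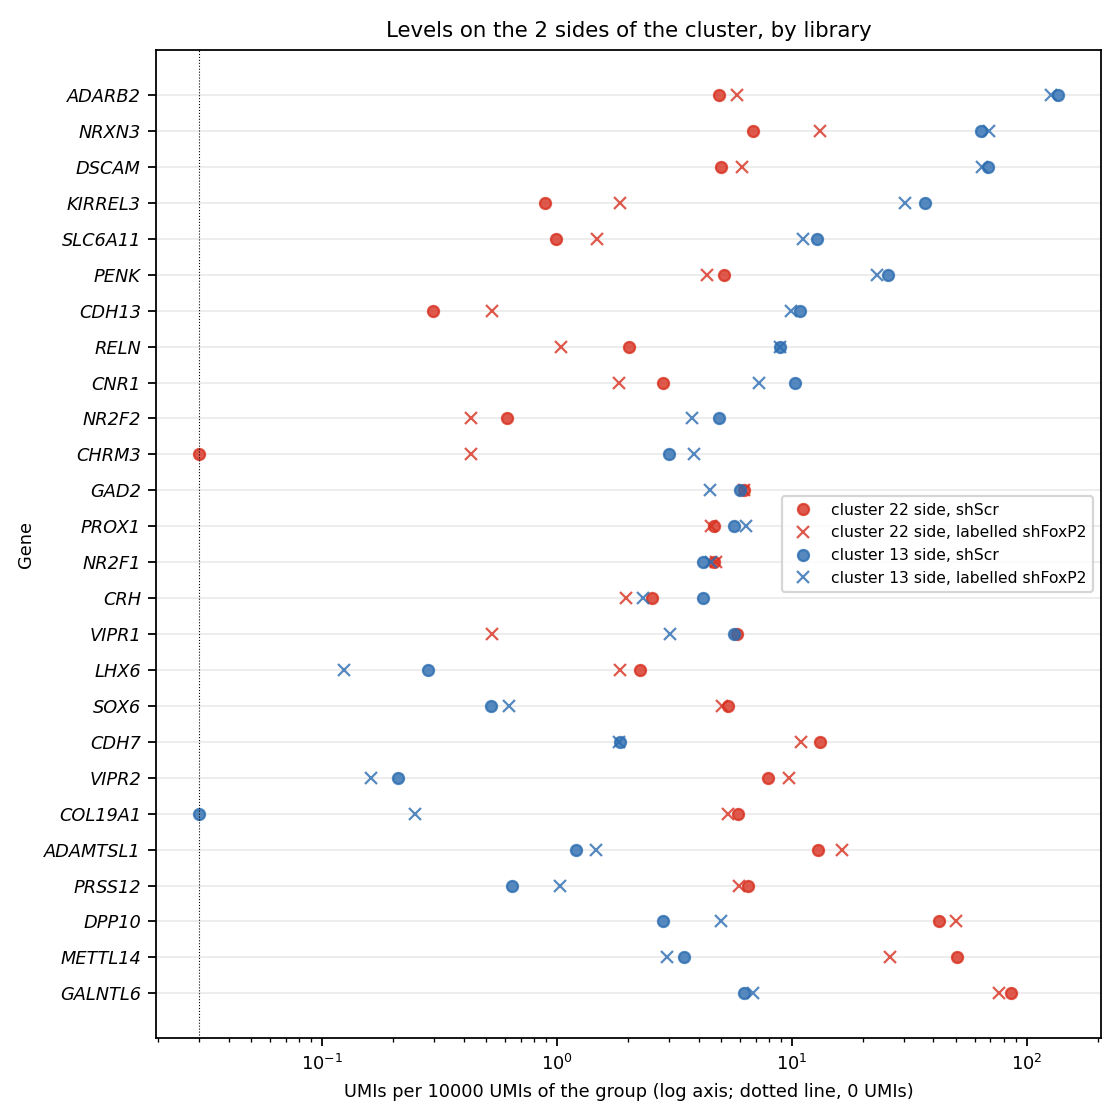
Levels of 26 genes in UMIs per 10000 (log axis, dotted line for 0 UMIs) on the cluster 22 side (red) and the cluster 13 side (blue) of the members, for shScr (circles) and the library labelled shFoxP2 (crosses), each gene read in the set of genes that did not place the nuclei. ADARB2 and SLC6A11 are higher on the cluster 13 side in both libraries, LHX6, VIPR2 and GALNTL6 on the cluster 22 side, and VIPR1 on the cluster 22 side differs by library.

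**Figure D4:**
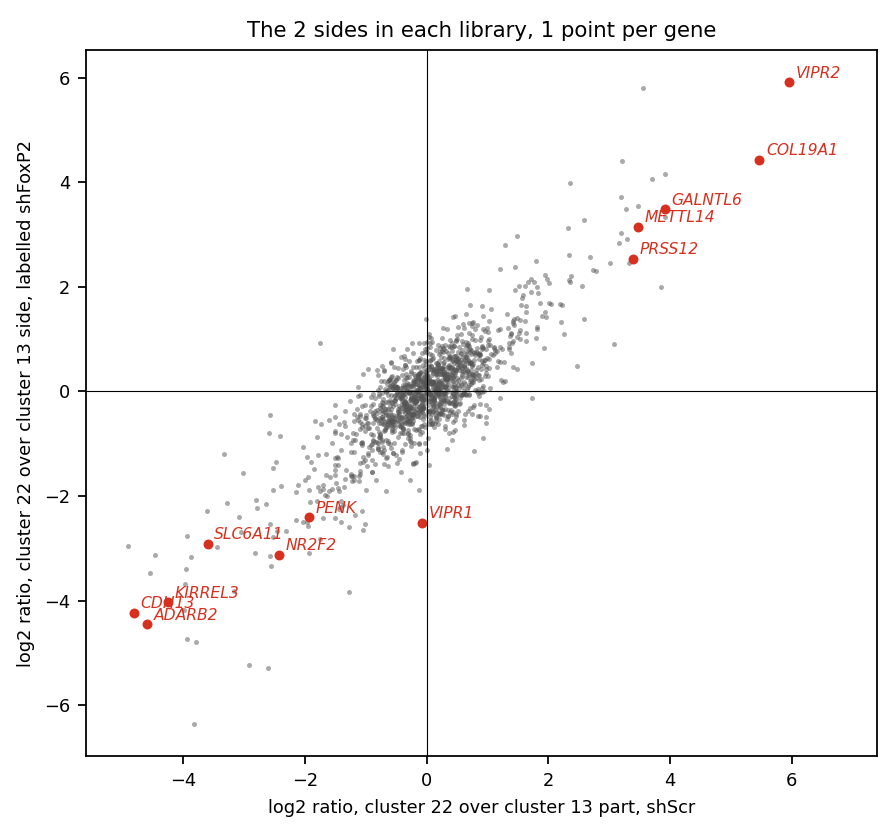
Log2 ratio of the cluster 22 to the cluster 13 side in the library labelled shFoxP2 (vertical) against shScr (horizontal), 1 point for each gene with the minimum in both. Points lie along the diagonal (r = 0.852), with ADARB2 and CDH13 at the lower left and VIPR2 at the upper right.

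The cluster 22 side held 38.0% (30.0 to 46.6) of shScr members and 28.9% (21.4 to 37.3) or 30.4%, by gene set, of members labelled shFoxP2. The intervals overlap. Since the libraries hold different birds and punches, a difference of hairpin, bird and dissection cannot be told apart in what follows.

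FOXP2 itself goes against the label. In members it had 72 UMIs in shScr (1.60, 1.25 to 2.01) and 143 UMIs in members labelled shFoxP2 (3.02, 2.55 to 3.56), a log2 ratio of 0.92 (0.50 to 1.35). The same ratio was 0.22 in all other nuclei and 0.35 in the nearest clusters. FOXP2 was lower in members than in all other nuclei, which had 4.71, and joint cluster 16 had 11.0. Within the members it lay mainly on the cluster 13 side, with 2.38 in shScr and 4.10 in the library labelled shFoxP2, against 0.640 and 0.728 on the cluster 22 side, where 13 and 11 UMIs were counted. Nuclear RNA counts do not measure the protein, and the direction of every library difference below is that of the library labels.

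Between the libraries 1.3% of the 3237 genes tested in members were at least 1 higher in the library labelled shFoxP2 and 1.58% at least 1 lower. The SD of the log2 ratios was 0.42 in members, where counting error alone would give 0.29, and 0.39, 0.44 and 0.42 in joint clusters 16, 21 and 18, each taken alone. The larger sum of all other nuclei gave 0.29. The median ratio was -0.01. The genes with the highest ratios were CRHR2 (1.92), TRPM3 (1.76), NKAIN3 (1.58), HS6ST3 (1.58), INO80D (1.46), ID4 (1.44), LOXHD1 (1.40) and C14H7orf50 (1.39). CRHR2, a receptor of the CRH peptide family, had 23 UMIs in shScr members and 91 in members labelled shFoxP2, and all but 1 of the latter came from the cluster 13 side. TRPM3 is a cation channel. In all other nuclei the ratio of CRHR2 was -0.19 and that of TRPM3 0.06. ID4 (0.92), LOXHD1 (0.83) and HS6ST3 (0.68) were also higher outside the cluster.

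The genes with the lowest ratios were RPRM (-2.0), AHNAK2 (-1.97), WHRN (-1.80), UCHL1 (-1.65), EFEMP1 (-1.65), ENO1 (-1.64), KDELR3 (-1.58) and ECSIT (-1.58). RPRM encodes a cell cycle inhibitor, UCHL1 a neuronal deubiquitinase and ENO1 an enzyme of glycolysis. ENO1 had 92 UMIs in shScr members and 31 in the others, and was also lower in all other nuclei (-0.87), as were RPRM (-1.11), UCHL1 (-1.0) and ECSIT (-1.30). WHRN (0.08) and EFEMP1 (0.19) were not.

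VIPR1 differed between the libraries mainly on the cluster 22 side. There, 118 UMIs in shScr (5.81) stood against 8 in the library labelled shFoxP2 (0.529), a log2 ratio of -3.46 (-4.70 to -2.43). A VIPR1 UMI was found in 38 of 54 nuclei (70.4%, median 3352.5 UMIs) and in 6 of 39 (15.4%, median 3511 UMIs). On the cluster 13 side the levels were 5.69 and 3.02, a ratio of -0.91 (-1.30 to -0.53), and in all other nuclei the ratio was -0.99. VIPR2, the other VIP receptor gene, had 7.93 and 9.70 on the cluster 22 side, without such a drop. The difference of VIPR1 between sides was not tested.

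TAC1, the precursor of substance P, had 6.94 and 2.78 on the cluster 22 side and 10.2 and 5.25 on the cluster 13 side, ratios of -1.32 and -0.95. TAC1 is abundant in MSNs, and all other nuclei had 11.8. The part of free RNA in the UMIs of the members was not tested. CRH had ratios of -0.37 (-1.05 to 0.29) and -0.85 (-1.31 to -0.40) on the 2 sides, and PENK -0.23 (-0.68 to 0.21) and -0.16 (-0.32 to -0.003). GALNTL6 (-0.16) and PRSS12 (-0.13), which lead the cluster 22 side, differed less between the libraries there. Over the 154 genes that were higher in cluster 22 members the median library ratio in the whole cluster was -0.28. It was 0.14 for the 181 genes that were higher in cluster 13 members and -0.04 for the other 1261. These groups of genes were chosen from shScr counts that also enter the library ratio, so the medians are a description and no test. The share of nuclei on the cluster 22 side was 38.0% in shScr and 28.9% or 30.4% in the library labelled shFoxP2, with overlapping intervals. The part of this share in the ratios of the whole cluster was not tested.

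METTL14, a subunit of the RNA methyltransferase that makes m6A, had 25.7 (24.2 to 27.2) in shScr members and 10.9 (9.97 to 11.9) in the others, against 0.903 in all other nuclei. On the cluster 22 side it had 50.5 and 26.0 (log2 ratio -0.96, -1.12 to -0.79), on the cluster 13 side 3.49 and 2.94, and its library ratio in all other nuclei was 0.10. In the RefSeq order of zebra finch genes METTL14 is next to PRSS12, which encodes the protease neurotrypsin, and PRSS12 is next to LOC100229648. Their log2 ratios to all other nuclei were 4.33, 4.79 and 3.51. Both METTL14 and PRSS12 were next highest in joint cluster 14, with 6.68 and 1.51. Of members with a PRSS12 UMI 91.9% had a METTL14 UMI, against 50.8% of those without, over both sides and at unequal depths. Both genes were found more often in cluster 22 members than in cluster 13 members. Before thinning these shares were 100% and 49.4% for METTL14 and 68.5% and 10.6% for PRSS12. PRSS12 itself had 6.50 and 5.95 on the cluster 22 side, so the library difference of METTL14 was not seen in it. Reads over exons and introns were counted, and whether reads of one neighbour were counted for another was not tested, which leaves the level of METTL14 uncertain.

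**Figure D5:**
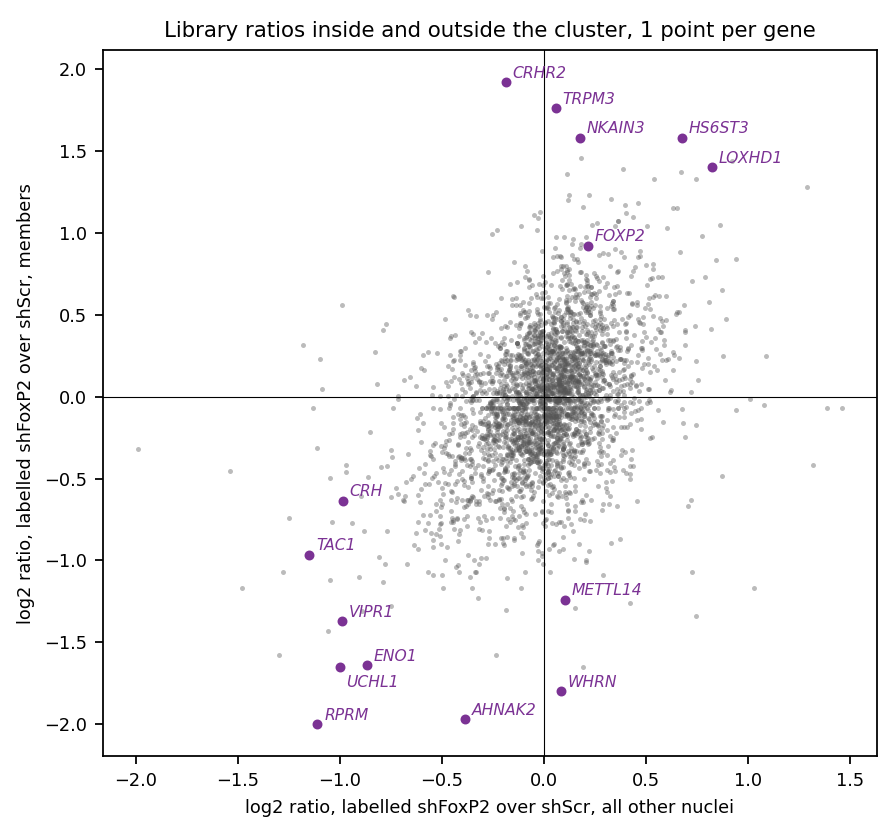
Log2 ratio of the library labelled shFoxP2 to shScr in members (vertical) against that in all other nuclei (horizontal), 1 point for each gene with at least 50 UMIs in the members. FOXP2 lies above 0 in both, CRHR2 and TRPM3 high in members only, RPRM and ENO1 low in both, and METTL14 low in members only.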

How the data were processed

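Nuclei from punches of Area X were sequenced with a 10x Genomics kit. The authors counted UMIs over exons and introns with Cell Ranger and filtered, clustered and projected the nuclei. Their deposited tables, 1 of the scrambled library and 1 of both libraries, hold these raw UMI counts for each nucleus, before normalization, and per nucleus the cluster and the UMAP position (deposited in arbitrary units).

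From these counts, sums by group were computed in Python 3.11.15 with pandas 2.3.3, numpy 2.4.6 and scipy 1.17.1. Of 17430 gene columns 4643 carry a LOC identifier, and 617 of these were named through RefSeq (assembly bTaeGut7.mat), which also gave the gene order. A ratio was read for genes with at least 50 UMIs observed or expected in the members, or at least 50 over both sums for the libraries and for the groups of members. A gene was called higher or lower at a log2 ratio of at least 1, and a sum of 0 was set to 3 UMIs. The design had set the minimum over both sums, which most genes pass against all other nuclei with too few UMIs in the members to be read, and its counts are given with the alternatives. For shares, each nucleus was reduced to 1000 randomly drawn UMIs. Scrublet, as in scanpy 1.11.5 with anndata 0.12.19, scored possible doublets. Its threshold marked 0 nuclei in either library, and the top 8% of scores was used instead. Likeness to cluster 22 or 13 is a log likelihood difference of the summed shScr profiles per UMI (genes with at least 20 UMIs, 0.5 added to each sum). Similarity of profiles used log2 of the level plus 0.1. The log2 ratio between libraries and its interval were tested on simulated Poisson counts with 200 genes changed. Those counts hold no spread between nuclei or birds, and the other steps were not tested in this way.

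The named genes are those of 22 lists of cell types and functions (at least 5 UMIs per 10000 or 1 log2 apart from other nuclei, and markers near 0), the 15 highest against all other nuclei, the 10 highest and 10 lowest against the nearest clusters, and the 8 highest and 8 lowest between libraries. The values of some of these genes are not reported here. The members and lists were chosen with earlier results of these data known. Alternatives were minimums of 20 and 200 UMIs and none, each library alone, the top 8% of doublet scores left out, members with at least 1000 UMIs, means over nuclei, ratios centred on the median, and thinning to 500 or 2000 UMIs. The score sides, the ratios within a side, the minimum over both sums, the settings for the 2 groups of members and the removal of shared barcodes were chosen after seeing the data. Figures were drawn with matplotlib 3.10.9.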

Additional observations from a re-analysis of the deposited data

Results flagged for a closer look

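Library ratios of 4 named genes were at least 1 on the log2 scale in members and had the opposite direction in all other nuclei, with both counting intervals away from 0. The difference between the groups was not tested, and with 1 library for each condition it cannot be. CRHR2 had a log2 ratio of the library labelled shFoxP2 to shScr of 1.92 in members and -0.188 in all other nuclei, EFEMP1 -1.65 and 0.191, FGL1 -1.07 and 0.724, and METTL14 -1.24 and 0.102. WHRN had -1.80 and 0.08, but its interval in all other nuclei (-0.10 to 0.27) included 0. Within a side of the cluster the ratios moved closer to 0. FGL1 had -0.61 (-1.41 to 0.16) and METTL14 -0.96 (-1.12 to -0.79) on the cluster 22 side, and CRHR2 had 1.59 (0.92 to 2.32) on the cluster 13 side. EFEMP1 had too few UMIs on either side for a ratio.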

How the results depend on the processing

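With at least 20 UMIs in place of 50, 653 genes were higher and 489 lower in members than in all other nuclei (423 and 322 with 50), with 200 UMIs 186 and 157, and with no minimum 4670 and 1181. Against the nearest clusters these counts were 287 and 290, 82 and 73, and 2660 and 971 (188 and 169 with 50). With at least 50 UMIs over both sums, as first designed, 1849 genes were higher and 1181 lower than in all other nuclei, and 277 and 432 than in the nearest clusters. Between the libraries they were 213 and 253 with at least 20 and 1 and 6 with at least 200 (42 and 51 with 50). Between the members from cluster 22 and cluster 13 they were 345 and 425 with at least 20 and 53 and 47 with at least 200 (154 and 181 with 50). Each minimum sets how many genes are read, so these counts follow it. Taking only cluster 22 of the shScr-only table gives 54 members in place of 277. Of 47 alternative values of the main results 23 stayed within the limits set for them and 24 moved beyond them. These values are shares and counts, for which no change of direction was read. Of 258 alternative values of named genes 201 stayed within the counting interval of the main value and 57 moved beyond it. Direction was read only for log2 ratios, between libraries only where the interval excluded 0, and 0 changed it. Of these, 5 of 6 library ratios moved when read within the cluster 22 side and 3 of 13 within the cluster 13 side. No paired analysis was possible because each condition has 1 library. The same reason limits every library ratio: counting intervals hold no spread between birds, and genes with few UMIs in 277 nuclei are imprecise.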

Other observations

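Other lists of genes were read against all other nuclei in the same way, beside the 11.9% of all genes that were higher and the 9.05% that were lower. Of 6 genes of GABA synthesis and transport 1 was higher (SLC6A11) and 0 lower. Of 5 pallidal-like markers 2 were higher (PENK and TSHZ1) and 2 lower (MEIS2 and FOXP2), and of 35 adhesion and guidance genes 8 were higher, led by CDH7 (2.81), and 9 lower, down to SEMA3E (-1.78). Of 5 astrocyte genes 0 were higher and 4 lower, of 2 oligodendrocyte genes 1 was lower and of 2 red blood cell genes 2 were lower. Of 3 genes of immature and cycling cells DCX (1.85) was higher, and the only immediate early gene with enough UMIs was JUN (1.19). Glutamatergic, cholinergic, oligodendrocyte precursor, microglial and endothelial lists had 0 genes with enough UMIs. Between the libraries the list genes at least 1 apart in members included CORT (1.07), GRM3 (1.07), SLIT1 (1.15) and VIPR1 (-1.37).

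Cluster 13 of the shScr-only table was divided by the joint clustering into 85 members and 183 nuclei of joint cluster 16, and over 3112 genes 156 were at least 1 higher on the log2 scale in the members and 284 lower. Since the authors drew the joint clusters from the same counts, these values are a description. ADARB2 had 145 UMIs per 10000 in the members and 17.4 in the nuclei of joint cluster 16, CNR1 9.69 and 0.510, SLC6A11 12.9 and 1.22, and CRH 3.67 and 0.148. SST (0.175 and 7.63), NPY (2.10 and 20.3), NOS1 (0.175 and 3.5) and SOX6 (0.568 and 16.1) were low in the members and high in the other nuclei, which had the peptides and NOS1 of a known striatal interneuron class. PROX1 (5.98 and 6.09) and GAD2 (5.81 and 6.09) were alike. Median depth was 2355 and 3074 UMIs.

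When the summed profile of the members was fitted as a mix of the other joint clusters, joint cluster 16 took 27.6% of the weight, 12 took 14.5% and 14 took 12.7%, and 218 genes (6.74%) lay at least 1 above the fitted sum on the log2 scale. For the cluster 22 members joint cluster 14 took 30.0% and 16 took 28.8%, and 23.7% of 722 genes lay at least 1 above the fit. For the cluster 13 members joint cluster 16 took 20.7% and 12 took 19.3%, and 13.9% of 812 genes did. The fit of all members was read on genes chosen by their UMIs in the members. The fits used different sets of genes, and genes below the fit were not counted. These shares are therefore not compared with each other and are no test.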
